A study of Citrus reticulata with 36 samples.

Results

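The 60 gene identifiers described here were read at a higher level in the ponkan cultivar HG than in the cultivar EG at every stage sampled, in at least 1 of the 2 ovule tissues. They were chosen from these data. Counts were divided by the library total and given as CPM (library-size CPM), and the 44734 of 128861 identifiers with a mean of at least 1 CPM over all 36 libraries were kept. An identifier was a member if, in nucellus or in integument, its lowest HG library lay above its highest EG library at each of the 3 stages. Nucellus gave 48 members and integument 13, and a single identifier, c76610_g1, was a member in both. The phrase "higher in HG at every stage" therefore held in 1 tissue only for the other 59.

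The study addressed seed abortion in ponkan (Citrus reticulata), a mandarin-type citrus, by RNA sequencing. HG stands for the cultivar "Huagan No.4" and EG for "Egan No.1". Nucellus and integument were cut from ovule sections by laser capture microdissection when 18, 28 and 32 days had passed since pollination (days after pollination, DAP), which made 12 groups of 3 libraries, stated to be biological replicates. Nanogram amounts of total RNA were amplified as cDNA from random primers (Ovation RNA-seq V2) before paired-end sequencing, and the labels do not say which instrument read which library. Total counts were 12687779 to 20947644 per library. No treatment, transgene or mutant allele is named for any group, so the groups differ by cultivar, tissue and stage alone as far as the labels go. No label names the tree or ovule behind a library, so libraries of a group may share a plant, in which case the p-values, based on the spread between the libraries alone, may be too small. The count table numbers the stages 1 to 3, and these were taken to follow the days in order (1 for 18 DAP, 3 for 32 DAP), an assumption that the labels do not settle.

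The nucellus is the inner body of the ovule in which the embryo sac forms, and in many citrus types it also gives rise to embryos without fertilisation. The integument encloses the nucellus and becomes the seed coat. Both are tissue of the mother plant. No gene names, descriptions or sequences come with the identifiers, so no role can be given to a member, no pathway list could be counted, and the captured tissues could not be checked against named markers.

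With 3 libraries against 3, 1 of the 20 equally likely orders puts all HG libraries on top, which is 5% at a stage and 1 in 8000 over 3 independent stages. For 44734 identifiers that is 5.59 per tissue. The 48 nucellus members, 0.107% of the identifiers, were 8.58 times this number, and the 13 integument members, 0.0291%, were 2.32 times it. The mirrored rule, with every EG library above every HG library, gave 9 identifiers in nucellus (0.0201%) and 33 in integument (0.0738%), with none in both. On this scale the larger number had HG on top in nucellus and EG on top in integument. The order in integument turned on the scale given below, and also without HG integument 28 DAP replicate 2, where 51 had HG and 43 had EG on top.

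**Figure D1:**
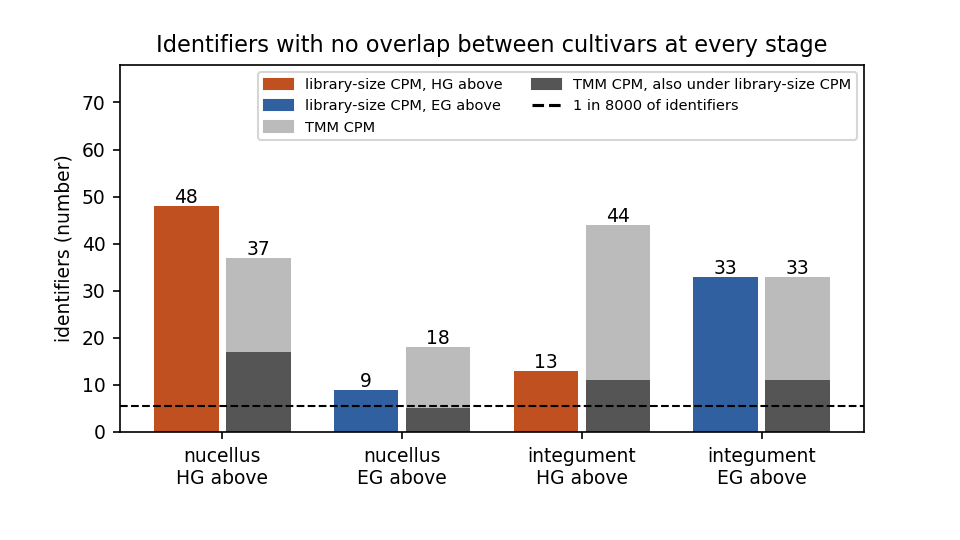
Number of identifiers with no overlap between the 3 HG and the 3 EG libraries at all stages, by tissue and by the higher cultivar. Coloured bars use library-size CPM, as the rule does (48 and 9 in nucellus, 13 and 33 in integument), grey bars use TMM-normalised CPM, the dark part is shared by both scales, and the dashed line is 1 in 8000 of 44734 identifiers (5.59).

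The 1 in 8000 treats the libraries of a stage as exchangeable and the stages as unrelated, and single stages did not behave so. In nucellus, HG lay wholly above EG for 8.83%, 11.2% and 8.24% of identifiers at 18, 28 and 32 DAP. In integument the shares were 7.51%, 6.1% and 8.09%. EG lay wholly above HG for 3.72%, 2.35% and 10.5% in nucellus and for 6.86%, 5.62% and 14.2% in integument. Multiplied over the stages, these shares give 36.5 identifiers in nucellus and 16.6 in integument. The observed 48 and 13 were 1.31 and 0.784 times those numbers. For the mirrored rule the products were 4.12 in nucellus and 24.4 in integument, beside the observed 9 and 33.

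The count depended on how libraries were scaled. TMM normalisation, which sets each library's effective size from the bulk of its genes, gave 37 nucellus identifiers, of which 17 were among the 48 members, and 44 integument identifiers, of which 11 were among the 13. The mirrored rule gave 18 in nucellus and 33 in integument on that scale, so HG on top was the larger number in both tissues. In all 28 of the 60 members met the rule on both scales. Of the 48 nucellus members, 25 were still separated at 2 stages, 5 at a single stage and 1 at none. By stage, 37 stayed separated at 18 DAP, 29 at 28 DAP and 40 at 32 DAP. Over all identifiers the median log2 ratio of HG to EG in nucellus at 28 DAP was 0.25 in library-size CPM and 0.02 in TMM-normalised CPM, and in integument at 32 DAP it was -0.12 and -0.01.

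Replicate 1 of EG nucellus at 28 DAP stood apart in composition, with the lowest TMM factor (0.591, with all libraries between 0.591 and 1.22) and the fewest identifiers with a count (55947). For 34 of the 48 nucellus members it was the lowest EG library of that stage. The rule looks at the highest EG library, so leaving a library out could only add identifiers. Without this library the count was 83 in library-size CPM, all 48 members among them, and other libraries moved the count further. Leaving out replicate 3 of EG nucellus at 28 DAP gave 119, replicate 3 of HG nucellus at 28 DAP gave 109, and replicate 1 of EG nucellus at 18 DAP gave 99. For the mirrored rule, dropping the library that stood apart raised the nucellus count from 9 to 44. On the TMM scale the count without it was 112, with 28 of the 48 members, an alternative chosen after the data were seen. The part of this library in the nucellus list was not tested further.

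Members just inside and just outside the rule differed little. The 2 nucellus members nearest the limit, c107928_g1 and c22913_g1, had a smallest ratio of lowest HG to highest EG library of 1.0001 and 1.0003, while the nearest identifiers outside, c58439_g1 and c33017_g1, had 0.999 and 0.997. In integument c58902_g1 and c54950_g1 stood inside at 1.004 and 1.005, and c119699_g1 and c112892_g1 outside at 0.9998 and 0.9993. Another 4 identifiers were separated at every stage but fell below 1 CPM, the highest of them at 0.880 CPM, and the lowest members had 1.04 and 1.08 CPM.

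The members were moderately abundant, with a median of 13.1 CPM (1.04 to 370 CPM) against 7.98 CPM over the 44734 identifiers. Their median transcript length, implied by the deposited counts and FPKM values of 59 members, was 2147 bases against 1950 bases. They also varied less between replicates. The mean coefficient of variation within groups had a median of 21.6% for the nucellus members in nucellus (32.4% over all identifiers) and of 12.4% for the integument members in integument (29.5%), a property that a rule on non-overlap favours. No member was at 0 in an HG library of the tissue that chose it. In EG, 4 nucellus members had at least 1 nucellus library at 0, at most 3 of 9, and 10 nucellus members had an EG library under 10 counts.

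Differences within the tissue that defined the members were mostly below 2-fold. For the 48 nucellus members the ratio of the HG to the EG mean in nucellus, over 9 libraries each, had a median of 1.68 (1.31 to 4.72), and 16 reached 2-fold. By stage the median ratio was 1.72 at 18 DAP, 1.86 at 28 DAP and 1.52 at 32 DAP, beside 1.03, 1.19 and 1.00 over all identifiers. In the TMM-based fit their median log2 differences were 0.72, 0.64 and 0.62, so the highest value at 28 DAP held on the library-size scale only. For the 13 integument members the ratio in integument had a median of 1.47 (1.28 to 2.67), and 3 reached 2-fold. The stage medians were 1.59, 1.40 and 1.39, beside 0.967, 1.01 and 0.919 over all identifiers. These values follow from the choice of members and are given without a test.

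The nucellus member with the widest gap between cultivars was c81234_g1, among members with at least 5 CPM. In nucellus its 3 HG libraries read 10.1, 9.21 and 12.5 CPM at 18 DAP, 13.96, 4.29 and 4.46 CPM at 28 DAP and 5.22, 5.37 and 6.94 CPM at 32 DAP. The EG libraries read 7.06, 3.79 and 5.74 CPM, then 2.51, 2.94 and 2.19 CPM, and then 2.51, 3.86 and 2.92 CPM. The cultivars did not overlap at any stage, while at 28 DAP a single HG library stood far above the other two. Group ratios in nucellus were 1.91, 2.97 and 1.89.

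In integument c81234_g1 was more abundant, and the cultivars overlapped at 18 and 28 DAP. The HG libraries there read 10.3, 17.6 and 13.6 CPM at 18 DAP and 17.5, 8.19 and 12.1 CPM at 28 DAP, beside EG libraries of 6.94, 12.7 and 8.87 CPM and of 13.2, 6.63 and 8.61 CPM. At 32 DAP the HG libraries (7.75, 9.18 and 9.45 CPM) lay above all EG libraries (4.20, 6.56 and 5.59 CPM). Averaged over stages in integument, the log2 difference was 0.57 (SE 0.22), which was not past the threshold (edgeR quasi-likelihood test, Benjamini-Hochberg adjusted p = 0.355). Between tissues it was lower in nucellus by a log2 value of -0.91 (SE 0.16, edgeR adjusted p = 2.3e-05).

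The next nucellus member, c124031_g1, was more abundant, and its gap was narrower. Its HG nucellus libraries read 45.9, 48.3 and 57.9 CPM at 18 DAP, 41.9, 64.2 and 31.5 CPM at 28 DAP and 35.3, 31.6 and 40.1 CPM at 32 DAP. EG libraries read 34.8, 41.2 and 22.6 CPM, 27.3, 23.0 and 23.4 CPM, and 27.2, 24.5 and 22.7 CPM at the same stages. In integument the cultivars overlapped at all stages, the group ratio was 1.56 at 18 DAP, 0.838 at 28 DAP and 1.43 at 32 DAP, and the mean log2 difference of 0.32 (SE 0.23) was not past the threshold (edgeR adjusted p = 0.676). It was 0.09 without HG integument 32 DAP replicate 3, 0.20 without HG integument 18 DAP replicate 3 and 0.54 without EG integument 28 DAP replicate 1. On the TMM-normalised scale both c81234_g1 and c124031_g1 were separated at 2 of the 3 nucellus stages, so neither met the rule there.

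**Figure D2:**
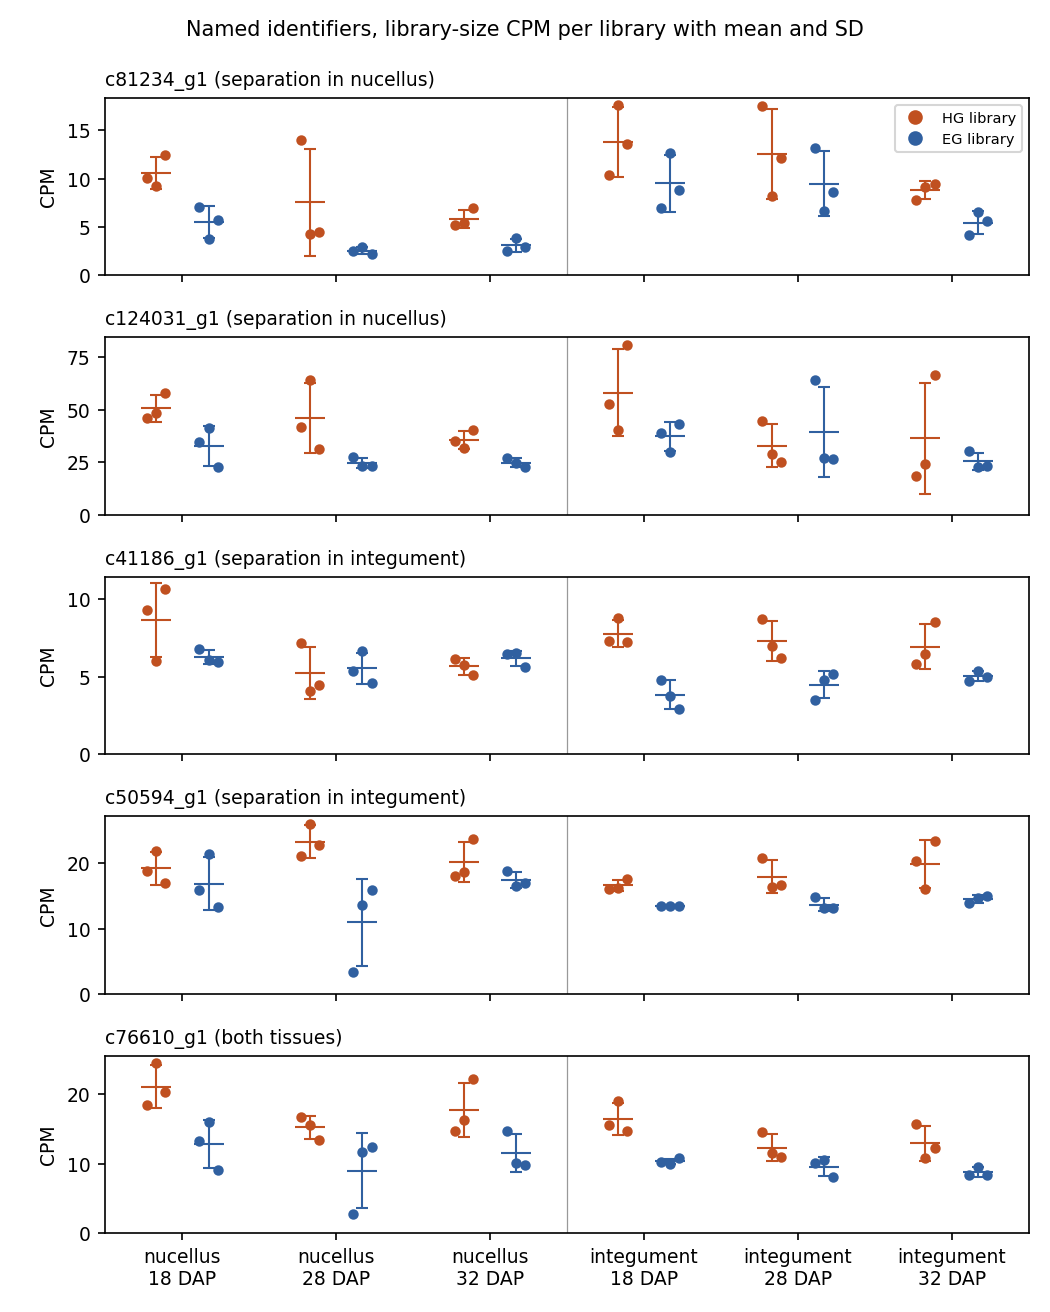
Library-size CPM of the 5 named members in each library (points), with the group mean and SD (bars, n = 3), HG in orange and EG in blue, nucellus on the left and integument on the right. In the tissue named above each panel all HG points lie above all EG points at each stage, and in the other tissue the cultivars overlap at most stages, except for c76610_g1.

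The integument was not used to choose 47 of the nucellus members, all but c76610_g1, so the rule did not fix their cultivar difference there. The tissues were not independent, though. Same-numbered nucellus and integument libraries correlated in their deviations from the group means (median 0.34, above 0.1 in 17 of 18 pairs). Most of the 47 leaned the same way in integument, and none was called as an average over stages. The HG to EG ratio of means in integument had a median of 1.23, and 45 of 47 had a ratio above 1, against 44.2% of all identifiers. In the edgeR fit of all 57344 identifiers tested, 45 of 47 had a positive log2 difference averaged over stages (47.7% of all), with a median of 0.32 against -0.02 over all. The test called 0 of the 47, as it called 0% of all identifiers with HG higher. At an unadjusted p under 0.05 there were 19 members, all higher in HG, which is 40.4% of the 47 against 9.99% of all identifiers in either direction. The smallest adjusted p was 0.150. Other tools called more members and more identifiers in all. With HG higher, DESeq2 called 3 of the 47 and 0.124% of 94193 identifiers, which were not filtered on low counts. Limma voom with sample quality weights called 6 with HG higher and 0.785% of the 57344. The edgeR fit without replicate 1 of EG integument at 28 DAP called 2 and 0.16% in that direction.

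Non-overlap in integument was uneven over the stages. HG lay wholly above EG in integument for 10 of the 47 at 18 DAP, or 21.3% against 7.51% of all identifiers. At 28 DAP this held for 2 members, 4.26% against 6.1%, and at 32 DAP for 12 members, 25.5% against 8.09%. At 28 DAP the members' share was thus no larger than that of the background. At least 1 stage was separated with HG on top for 22 of the 47 (46.8% against 20.1%), and with EG on top for 4 (8.51% against 24.4%). The labels do not say whether libraries of both tissues were cut from the same ovules, and same-numbered libraries of the tissues correlated. The integument thus cannot be taken as an independent sample of the same cultivars.

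At 32 DAP, 4 of the 47 were called in integument with HG higher, against 0.893% of all identifiers (512 of 57344), and they are named after their values were seen. The member c115593_g1 read 120, 443 and 127 CPM in HG integument and 18.8, 7.54 and 6.39 CPM in EG integument at 32 DAP. Its log2 difference there was 4.56 (SE 0.87, edgeR adjusted p = 0.0149). The cultivars did not overlap at that stage, and HG replicate 2 stood well above the other HG libraries.

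The same library was the highest for c27981_g1, with 11.95, 46.3 and 16.9 CPM in HG integument against 1.28, 2.05 and 1.55 CPM in EG (log2 difference 4.11, SE 0.70, edgeR adjusted p = 0.00966). For c54395_g1 the HG libraries read 10.9, 42.4 and 13.7 CPM and the EG libraries 1.49, 1.03 and 1.25 CPM (log2 difference 4.31, SE 0.75, edgeR adjusted p = 0.00966). Both were separated between cultivars at 32 DAP. The last, c44383_g1, read 7.21, 22.5 and 0.182 CPM in HG and 0.205, 0 and 0 CPM in EG, so that its groups overlapped, and the EG group held 4 counts in all (edgeR adjusted p = 0.00966). The number of members called fell to 0 without HG integument 32 DAP replicate 2, and without EG replicate 2 or EG replicate 3 of the same stage. It also fell to 0 when integument libraries alone were fitted. In these fits 6, 0, 3 and 0 of all 57344 identifiers were called with HG higher. Almost all calls of this contrast were thus lost, and not those of the members alone. DESeq2 called 7 of the 47 at 32 DAP beside 1.56% of all identifiers with HG higher, and limma voom 11 beside 4.87%.

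Neither c115593_g1 nor c27981_g1 was separated between cultivars in integument at 18 or 28 DAP. At 28 DAP c115593_g1 read 20.1, 14.1 and 11.3 CPM in HG and 145, 10.6 and 31.7 CPM in EG, and c27981_g1 read 5.98, 3.89 and 5.15 CPM in HG and 10.3, 1.03 and 1.68 CPM in EG. In nucellus at 32 DAP, where they were chosen, c115593_g1 read 17.2, 63.4 and 18.9 CPM in HG against 7.08, 3.96 and 3.42 CPM in EG. Replicate 2 was thus its highest HG library of that stage in both tissues. Of the 47 nucellus members in integument, 0 were called at 18 DAP and 0 at 28 DAP with HG higher in the edgeR fit, as were 0% of all identifiers. At an unadjusted p under 0.05, 9 members were higher in HG at 18 DAP, against 8.88% of all identifiers in either direction. At 28 DAP 2 were higher in HG and 3 higher in EG, against 6.7% of all.

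**Figure D3:**
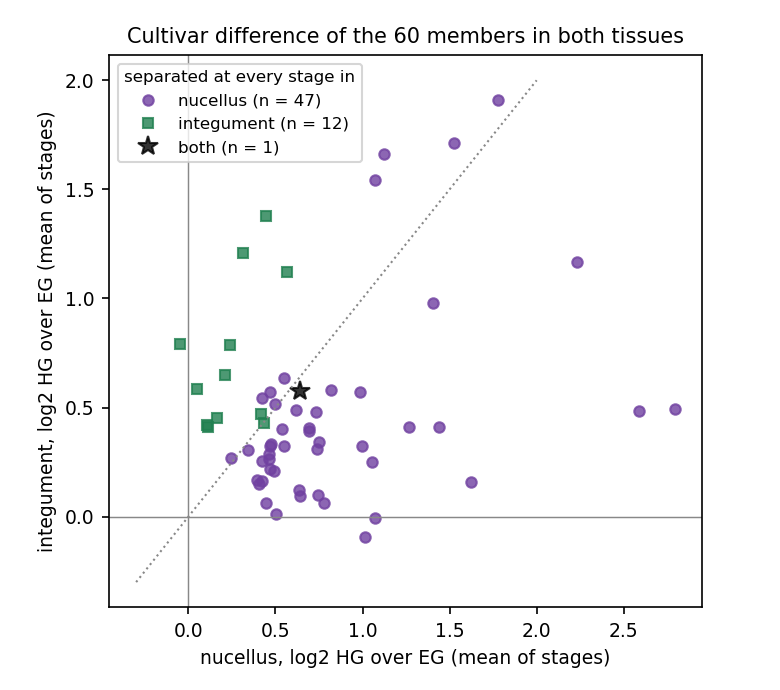
Fitted log2 HG over EG, averaged over the 3 stages, in nucellus (x axis) and integument (y axis) for the 60 members, each point 1 identifier, marked by the tissue whose libraries chose it. The dotted line marks equal differences. A member's position along the axis of its own tissue follows from the rule, and along the other axis 45 of 47 nucellus members and 11 of 12 integument members lie above 0. The star, c76610_g1, was chosen on both axes.

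Among integument members with at least 5 CPM, those with the widest gap were c41186_g1 and c50594_g1. In integument c41186_g1 read 7.32, 8.75 and 7.24 CPM in HG and 4.81, 3.77 and 2.92 CPM in EG at 18 DAP. At 28 DAP the values were 8.71, 6.99 and 6.22 CPM against 3.48, 4.80 and 5.197 CPM, and at 32 DAP 5.81, 6.47 and 8.54 CPM against 4.71, 5.39 and 4.99 CPM. The gap was widest at 18 DAP, with group ratios of 2.03, 1.63 and 1.38 over the stages. In nucellus c41186_g1 overlapped between cultivars at every stage, between 4.09 and 10.6 CPM in HG and between 4.62 and 6.78 CPM in EG. Its mean log2 difference in nucellus was -0.05 (SE 0.16, edgeR adjusted p = 0.954), and the sign changed under other settings.

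For c50594_g1 the EG integument libraries were close together, at 13.4, 13.5 and 13.5 CPM at 18 DAP, 14.8, 13.1 and 13.2 CPM at 28 DAP and 13.9, 14.7 and 15.03 CPM at 32 DAP. The HG libraries read 15.999, 16.2 and 17.6 CPM, 20.8, 16.4 and 16.6 CPM, and 20.3, 16.1 and 23.4 CPM. The difference was small, with ratios of 1.24, 1.31 and 1.37. The cultivars did not overlap at any stage, as the rule requires. At 32 DAP the lowest HG library (16.1 CPM) lay close to the highest EG library (15.03 CPM). In nucellus the cultivars overlapped at 18 and 32 DAP. At 28 DAP the HG libraries read 21.1, 26.1 and 22.8 CPM and the EG libraries 3.30, 13.7 and 15.9 CPM, without overlap, the lowest being the EG replicate 1 described above. The mean log2 difference in nucellus was 0.43 (SE 0.14, edgeR adjusted p = 0.256). Both integument members met the rule on the TMM-normalised scale too.

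The nucellus did not choose 12 of the integument members, all but c76610_g1, and there they leaned toward HG most clearly at 18 DAP. Here too the correlated libraries of the tissues mean that the nucellus is no independent sample. The ratio of HG to EG means in nucellus had a median of 1.26 (1.07 to 1.66) and lay above 1 for 12 of 12, against 63.0% of all identifiers. By stage the median ratio was 1.47 at 18 DAP, 1.37 at 28 DAP and 1.01 at 32 DAP, beside 1.03, 1.19 and 1.00 over all identifiers. At these stages 12, 11 and 7 of 12 lay above 1, against 53.9%, 68.2% and 50.2% of all. In the TMM-based fit 8 of 12 were above 0 at 28 DAP, with a median log2 difference of 0.25.

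HG lay wholly above EG in nucellus for 7 of the 12 at 18 DAP (58.3% against 8.83%), 1 at 28 DAP (8.33% against 11.2%) and 0 at 32 DAP (0% against 8.24%), so that the share was above the background at 18 DAP alone. At least 1 stage was separated with HG on top for 8 of 12 (66.7% against 25.4%) and with EG on top for 2 (16.7% against 15.7%). The edgeR test of the mean over stages in nucellus called 0 of 12, against 0.0157% of all identifiers (9 of 57344), with a smallest adjusted p of 0.181. At an unadjusted p under 0.05 there were 2, or 16.7% against 10.6% of all identifiers. The median log2 difference was 0.22 and 11 of 12 were above 0, against -0.01 and 48.3% over all tested. DESeq2 called 1 of the 12 with HG higher beside 0.237% of all identifiers, and limma voom 1 beside 0.366%.

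The member of both tissues, c76610_g1, had HG nucellus libraries of 18.4, 24.4 and 20.4 CPM at 18 DAP, 16.7, 15.6 and 13.4 CPM at 28 DAP and 14.8, 16.3 and 22.2 CPM at 32 DAP. EG nucellus libraries read 13.2, 16.01 and 9.15 CPM, 2.76, 11.7 and 12.4 CPM, and 14.7, 10.1 and 9.82 CPM. At 32 DAP the lowest HG and the highest EG library were nearly equal, at 14.8 and 14.7 CPM.

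In integument the HG libraries of c76610_g1 read 15.6, 19.0 and 14.7 CPM, 14.5, 11.5 and 11.01 CPM, and 15.7, 10.8 and 12.2 CPM over the stages. The EG libraries read 10.2, 10.03 and 10.8 CPM, 10.2, 10.5 and 8.07 CPM, and 8.35, 9.59 and 8.44 CPM. Its group ratios over the stages were 1.65, 1.70 and 1.54 in nucellus and 1.59, 1.29 and 1.47 in integument, all above 1 by the rule. They were close between the 2 tissues at the first and last stage and further apart at 28 DAP. At 28 DAP replicate 1 of EG nucellus, the library that stood apart in composition, read 2.76 CPM beside 11.7 and 12.4 CPM. On the TMM-normalised scale c76610_g1 was separated at every stage in nucellus and at 2 stages in integument. Both tissues chose it, so no test is given.

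The members were not nucellus or integument genes as a group. Averaged over cultivars and stages, 18 of the 60 were called higher in nucellus and 18 higher in integument by edgeR, against 16.6% and 18.9% of all identifiers (35.5% in either direction), and the log2 difference of nucellus over integument ran from -7.08 to 4.74. Of the 48 nucellus members, 15 were higher in nucellus, 15 higher in integument and 18 were not called. Of the 13 integument members, 3 were higher in each tissue. By these calls, averaged over the cultivars, a nucellus member was as often integument-preferring as nucellus-preferring. The shares over all identifiers were also near each other.

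For the 15 integument-preferring nucellus members, the nucellus level was 1.29% to 136% of the integument level in HG and 0.385% to 64.0% in EG. Their median log2 difference between the cultivars in nucellus was 1.01, against 0.69 for the 15 nucellus-preferring ones and 0.50 for the 18 not called. All of these members were chosen by that same difference in nucellus, so the rule itself shaped the medians. Their order therefore cannot show an effect of tissue preference, and it was not tested. Integument RNA in the nucellus libraries was gauged with 310 identifiers that were not members and were called at least 32-fold higher in integument in both cultivars. Their summed CPM in a nucellus library, as a percentage of their summed mean CPM in integument, was 1.40% to 2.74% in HG (median 1.92%) and 0.677% to 2.19% in EG (median 1.43%), and 105 to 147 of them were at 0 in an HG library against 93 to 205 in an EG library. The ranges overlapped at 18 and 32 DAP, at 1.40% to 1.99% against 0.986% to 2.19% and at 1.54% to 2.18% against 1.02% to 1.86%. At 28 DAP the overlap was narrow, at 1.92% to 2.74% in HG and 0.677% to 1.94% in EG. The 0.677% and the 205 both belong to replicate 1 of EG nucellus at 28 DAP, the library that stood apart in composition. EG replicates 2 and 3 of that stage read 1.94% and 1.43%, with 119 of the 310 at 0 in each. The 32-fold cut itself kept these percentages low, so their size does not measure how much integument RNA the nucellus libraries held. The part of this sum in the members' difference was not tested.

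In the other direction, 106 identifiers at least 32-fold higher in nucellus summed in the same way to 0.218% to 2.23% of their nucellus level in the HG integument libraries and to 0.253% to 1.64% in the EG ones. The ranges overlapped widely. Both sets were chosen from these libraries by the 32-fold cut, which largely set the size of the percentages, and they carry no gene names.

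Over time the members tended to be lower at 32 DAP than at 18 DAP, averaged over the cultivars. The rule did not use this contrast, but in the tissue that chose a member it used values of the same libraries. The members also share these libraries, so counts of members are not counts of independent cases. In nucellus 54 of the 60 had a negative log2 difference of 32 over 18 DAP, and 44 of the 48 nucellus members did, with a median of -0.48 against 0.01 over all identifiers. None of the 60 was called by edgeR, against 0.0924% of all identifiers (53 of 57344), and the smallest adjusted p was 0.0718. At an unadjusted p under 0.05, 22 of 60 were lower at 32 DAP and 0 higher, beside 8.62% of all identifiers in either direction. In integument 48 of 60 were below 0, as were 39 of the 48 nucellus members, whose median was -0.31 against 0.01 over all. None was called there, against 0.0279% of all identifiers, while 12 had an unadjusted p under 0.05 with 32 DAP lower and 1 with 32 DAP higher, beside 9.47% of all.

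Between 18 and 32 DAP in nucellus DESeq2 called 4 members, all lower at 32 DAP, beside 0.165% of all identifiers in that direction, and limma voom called 8, all lower, beside 0.685%. In integument DESeq2 called 1 in each direction, beside 0.419% of all identifiers called, and limma voom called 6, all lower at 32 DAP, beside 1.39% of all in that direction. The integument members had smaller differences, with a median log2 value of 32 over 18 DAP of -0.17 in nucellus (11 of 13 below 0) and -0.25 in integument (10 of 13 below 0). The named member c81234_g1 had the values -0.89 in nucellus (SE 0.27, edgeR adjusted p = 0.266) and -0.74 in integument (SE 0.27, edgeR adjusted p = 0.347).

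**Figure D4:**
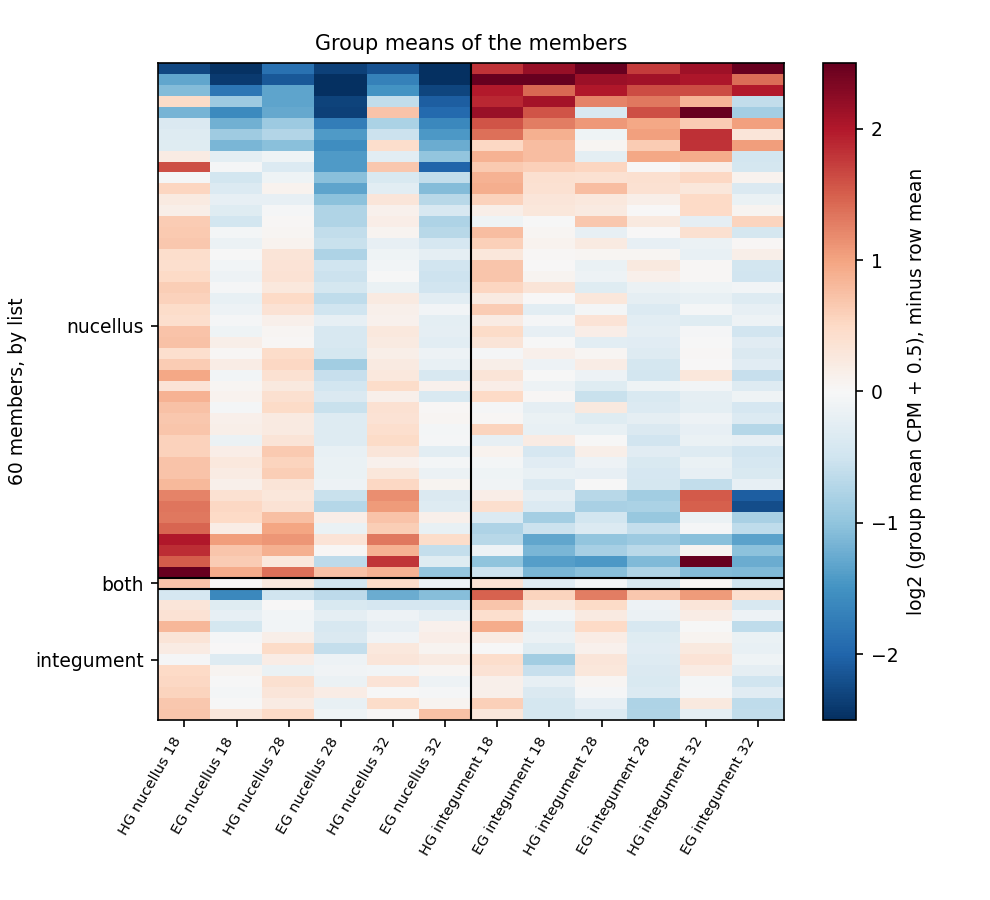
Group means of the 60 members (rows) in the 12 groups (columns, n = 3 libraries each) as log2 of the library-size CPM plus 0.5, minus the row mean, with nucellus columns left and integument columns right of the vertical line. Rows are grouped by the tissue that chose them, 47 in nucellus, 1 in both and 12 in integument, and ordered by tissue preference, so that integument-preferring rows stand at the top of each block and nucellus-preferring rows at the bottom. Values past the ends of the colour scale are drawn at its ends.

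The members did not vary as 1 block over the 36 libraries. Over their 1770 pairs the Pearson correlation of log2 CPM had a median of 0.38 and went down to -0.81. At a correlation of at least 0.95, 4 pairs stood out, all among nucellus members and named after their values were seen. The pair c124031_g1 and c35269_g1 reached 0.99, with means of 37.0 and 36.0 CPM and implied lengths of 1309 and 1288 bases. The pair c27981_g1 and c54395_g1 reached 0.98, with 10.5 and 9.68 CPM. The member c7513_g1 correlated with c66812_g1 at 0.96 and with c88093_g1 at 0.96. The table holds more identifiers than a plant genome usually has genes, and without sequences it was not tested whether such pairs are copies or pieces of 1 gene, so 60 is a count of identifiers and not of genes.

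The identifiers with EG on top leaned toward EG in the other tissue as well. The 33 from integument were lower in HG nucellus in 32 cases, with a median log2 HG over EG of -0.53. The 9 from nucellus were lower in HG integument in 9 of 9, with a median of -0.37. Over all identifiers tested, log2 HG over EG was above 0 for 48.3% in nucellus and 47.7% in integument. The correlated libraries of the tissues limit this as they do for the HG members. Leaning the same way in the other tissue was therefore not particular to the HG members. In nucellus the EG-higher sets had positive medians of log2 32 over 18 DAP, at 0.53 for the 9 and 0.17 for the 33, beside -0.48 for the 48 nucellus members and -0.17 for the 13 integument members. The difference between these medians was not tested.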

How the data were processed

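RNA from 36 laser-captured nucellus and integument samples was sequenced. The authors deposited whole-number read counts per identifier and FPKM values for the same rows. The submitters' processing notes name RSEM, Bowtie2, cutadapt and DESeq; for their roles and versions, the reference and any rounding of estimated counts, "not given in the sources used here" applies. 1 unnamed blank column of the count table was not used. The counts were used as deposited, and deposited FPKM served for an alternative and for lengths (CPM over FPKM). Total counts were 12687779 to 20947644 per library, and 34664 identifiers had no count in any library. No replicate libraries were identical, and their chi-square divided by its degrees of freedom was at least 7.83.

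The rule used library-size CPM. Tests used edgeR 4.0.16 (R 4.3.3): TMM, filterByExpr (minimum count 10, total 15; 57344 identifiers with 99.9% of counts), 1 mean per group, 24 residual degrees of freedom, robust quasi-likelihood F test. P-values were adjusted by Benjamini-Hochberg over all identifiers tested, "called" means an adjusted p under 0.05, and no p is adjusted over the members alone. The common biological coefficient of variation was 0.439. Standard errors are the log2 difference over the root of F. The procedure was tested on simulated data. Alternatives were TMM, RLE and FPKM scaling, other filters, the compared tissue alone, a replicate block, DESeq2 1.42.0, limma 3.58.1 (voom) and each replicate left out. Wherever voom is named, it was run with sample quality weights. DESeq2 was run without the filter on low counts, so its shares of all identifiers are of 94193 and not of 57344.

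The members and lists were chosen with earlier results of these data known. Named identifiers are the 2 nucellus and 2 integument members with the largest smallest gap over the stages, log2 of (lowest HG + 0.5) over (highest EG + 0.5), with a mean of at least 5 CPM, and up to 2 members of both tissues. Others were named after their values were seen. Marker lists by gene name could not be matched.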

Additional observations from a re-analysis of the deposited data

Results flagged for a closer look

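In the tissue that did not choose them, 6 members had all EG libraries above all HG libraries at a stage at which the choosing tissue showed the opposite. The difference between the tissues was not tested in any of them, and with 3 libraries against 3 such an order is 1 of 20. Of the 12 members chosen by integument alone, 2 (16.7%) had EG above HG in nucellus at 32 DAP, against 10.5% of all identifiers. Of the 47 chosen by nucellus alone, 1 (2.13%) had it in integument at 28 DAP, against 5.62% of all. At 32 DAP in integument 3 of the 47 (6.38%) had it, against 14.2% of all. The shares of the 47 were thus below the background. Of the integument members, c100404_g1 had an HG to EG ratio of 0.833 in nucellus at 32 DAP beside 1.18 in integument, and c58902_g1 had 0.606 beside 1.33. Of the nucellus members in integument at 32 DAP, c33419_g1 had a ratio of 0.542 beside 2.13 in nucellus, c5935_g1 had 0.740 beside 1.38, and c7513_g1 had 0.756 beside 1.85. The last, c44383_g1, had 0 counts in HG integument at 28 DAP, a ratio of 0, against 7 counts in EG, which was at least 2.35-fold higher when HG is set to 3 counts over the group, beside a ratio of 3.12 in nucellus.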

How the results depend on the processing

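Of the rule counts, integument gave 44 identifiers on the TMM scale (13 as reported), and nucellus gave 112 on the TMM scale without EG nucellus 28 DAP replicate 1 (48 as reported). Leaving out 1 library at a time, which can only loosen the rule, gave 51 to 119 in nucellus and 14 to 54 in integument. Counts in this paragraph include c76610_g1, which both tissues chose, so that a cultivar call of it is not a test. For DESeq2 and voom the cultivar counts without it are given above. Of the nucellus members between cultivars in integument over the mean of stages, DESeq2 called 4, limma voom 7 and the fits with 1 library left out 0 to 2 (0 as reported, 2 without EG integument 28 DAP replicate 1). At 32 DAP, where 4 were called, the compared tissue alone gave 0, DESeq2 7 (beside 1466 of 94193 identifiers with HG higher), voom 12 (beside 2792 of 57344, against 512 in edgeR) and the fits with 1 library left out 0 to 6. Of the integument members in nucellus, DESeq2 and voom called 2 each, against 0, and 1 each of the 12 without c76610_g1. Of all identifiers they called 0.237% and 0.366% with HG higher. Between 18 and 32 DAP in nucellus, where 0 were called, no filter and the compared tissue alone gave 1 each, DESeq2 4, voom 8 and the fits with 1 library left out 0 to 1. In integument DESeq2 gave 2, voom 6 and those fits 0 to 1. Tissue calls were 33 to 39 with 1 library left out (36 as reported). The median log2 difference in the other tissue was 0.27 to 0.47 for nucellus members and 0.15 to 0.33 for integument members with 1 library left out. The log2 difference of c41186_g1 in nucellus changed sign with voom (0.039) and in the fits with 1 library left out, which spanned -0.12 to 0.039. The cause of these changes was not tested. With a replicate block that joined same-numbered libraries of the groups compared, 0, 0 and 4 members were called in the cultivar comparisons above, 37 between tissues and 0 between stages, so that no call count moved by over 1.5 times. Deviations of same-numbered nucellus and integument libraries correlated at 0.062 to 0.54 (median 0.34), above 0.1 in 17 of 18 pairs, and 17 of 18 nucellus libraries correlated best with their own number, a hint from the data that the numbers are shared. Depth limits the 10 nucellus and 2 integument members with an EG library under 10 counts.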
